A study of Homo sapiens with 4 samples.

Results

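The UGT1A locus encodes 9 UDP-glucuronosyltransferases from a single stretch of human chromosome 2, and it was followed here in the human hepatocellular carcinoma line PLC8024 after its cells were sorted by flow cytometry for the surface protein CD133. Members were all probe sets whose platform annotation names at least 1 UGT1A gene, and 9 of the array's 54675 probe sets met this rule, naming 9 of the 21359 genes of the annotation. The locus was picked on the RMA and MAS5 differences between the populations that are described here. Of the 9 probe sets, 7 name several UGT1A genes and 2 name a single gene. The groups were a CD133+ and a CD133- population of the same line, with no treatment or genotype difference in the labels, and each was deposited as a linear MAS5 intensity and as a log2 RMA value. Each population thus has 1 array value in each processing. Without replicates no difference has an error over cultures or sorts, and none was tested. The labels do not say if a population's MAS5 and RMA columns share an array, so the 2 processings were never taken as replicates.

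UDP-glucuronosyltransferases of the endoplasmic reticulum attach glucuronic acid from UDP-glucuronic acid to lipophilic molecules, which makes these soluble enough for export into bile or urine. In the UGT1A locus each gene has its own promoter and first exon, which encodes the substrate-binding part of the enzyme, and all first exons are spliced to the same set of downstream exons, which encode the part that binds the sugar donor and the membrane. UGT1A1 is the enzyme that conjugates bilirubin. UGT1A3, UGT1A4, UGT1A6 and UGT1A9 are further liver enzymes, which act on bile acids, amines, simple phenols and bulky phenols in turn, while UGT1A7, UGT1A8 and UGT1A10 are known mainly from the gut and other tissues outside the liver. Because the last exons are common, a probe placed there reports the sum of all UGT1A transcripts, and only a probe in a first exon reports a single gene.

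The promoters of the genes are separate and differ in sequence, so the windows are shown here for representatives of the groups that the alignment below separates. RefSeq windows on GRCh38.p14 were matched by symbol for 8 of the 9 genes, with no window matched for UGT1A10, and UGT1A6 has 2 annotated starts, which gave 9 windows of 300 bases. Each line gives the 250 bases before the annotated start, 5′ to 3′, and capitals mark a match to a searched motif.
UGT1A9, chr2:233671648-233671897, plus strand: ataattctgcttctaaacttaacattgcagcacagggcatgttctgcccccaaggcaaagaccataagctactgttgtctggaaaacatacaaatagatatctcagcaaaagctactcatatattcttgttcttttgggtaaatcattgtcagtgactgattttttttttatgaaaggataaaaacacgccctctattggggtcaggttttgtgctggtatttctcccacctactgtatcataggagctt
UGT1A6, first annotated start, chr2:233691452-233691701, plus strand: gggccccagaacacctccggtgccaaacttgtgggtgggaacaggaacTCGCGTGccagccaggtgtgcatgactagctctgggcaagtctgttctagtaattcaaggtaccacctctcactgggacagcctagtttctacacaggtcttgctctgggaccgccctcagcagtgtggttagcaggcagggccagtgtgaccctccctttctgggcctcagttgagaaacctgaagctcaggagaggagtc
UGT1A3, chr2:233728792-233729041, plus strand: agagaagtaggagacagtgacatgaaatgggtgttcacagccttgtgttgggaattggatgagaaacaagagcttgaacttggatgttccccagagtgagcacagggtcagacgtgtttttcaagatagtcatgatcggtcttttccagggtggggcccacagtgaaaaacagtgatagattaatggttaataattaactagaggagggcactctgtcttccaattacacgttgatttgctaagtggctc
UGT1A1, chr2:233760020-233760269, plus strand: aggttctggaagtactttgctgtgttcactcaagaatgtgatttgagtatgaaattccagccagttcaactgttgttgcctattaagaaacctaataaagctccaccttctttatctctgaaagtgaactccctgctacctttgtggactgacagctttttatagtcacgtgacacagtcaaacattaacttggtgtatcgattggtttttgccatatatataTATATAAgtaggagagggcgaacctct

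The motifs searched, on both strands, were TNGCGTG for the aryl hydrocarbon receptor's response element, TGACNNNGC for the antioxidant response element and TATATAA as a TATA element. The TNGCGTG letters were in the window of the first UGT1A6 start, from position -202, and in 5.51% of all 35116 RefSeq promoter windows of this length. The TGACNNNGC letters were in the windows of the second UGT1A6 start and of UGT1A5, and in 13.3% of all windows. The TATATAA letters were in the UGT1A1 window from position -27, and in 2.57% of all windows. No 2 of these matches overlapped, and the UGT1A3 and UGT1A9 windows held none. They describe these letters in these windows and nothing about binding.

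In global alignments of the 36 pairs of windows, UGT1A3, UGT1A4 and UGT1A5 formed a group with 87.7% to 89.7% identity. UGT1A7, UGT1A8 and UGT1A9 formed another, with 64.3% to 78.6%. The other 30 pairs, which include all pairs of the UGT1A1 and UGT1A6 windows, had 43.8% to 50.5%. The array values that follow do not tell these promoters apart.

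**Figure D1:**
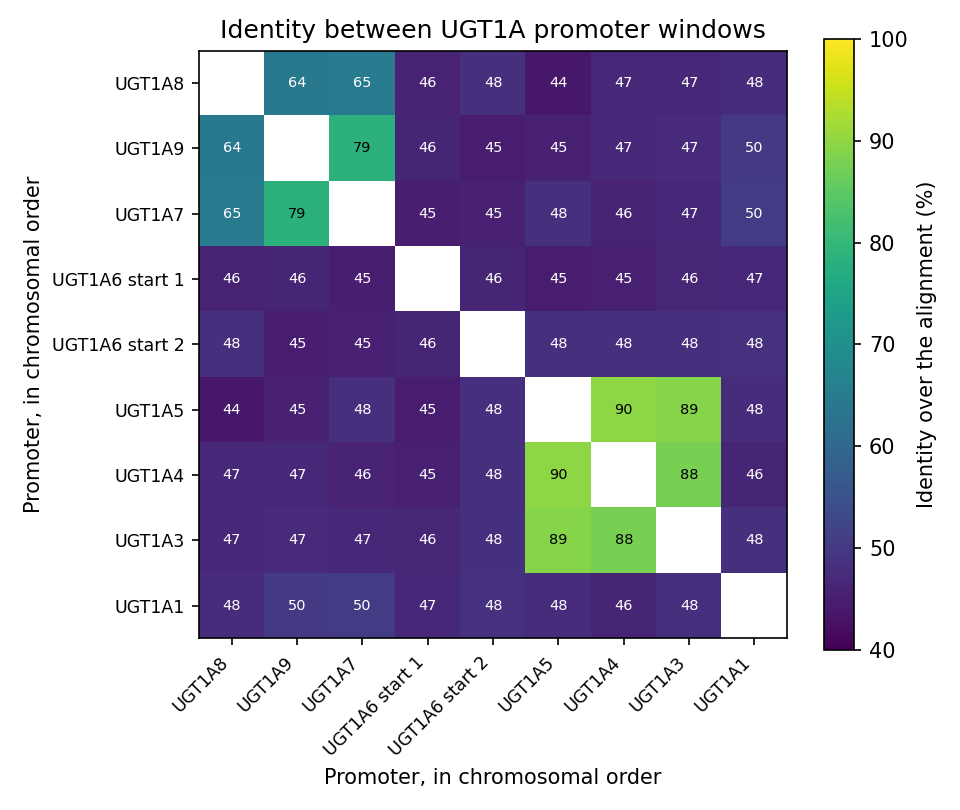
Percent identity over the global alignment of each pair of the 9 UGT1A promoter windows of 300 bases, on both axes in chromosomal order. The UGT1A3, UGT1A4 and UGT1A5 windows form a block of 87.7% to 89.7% and the UGT1A7, UGT1A8 and UGT1A9 windows a block of 64.3% to 78.6%.

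The UGT1A signal was about 10-fold lower in the CD133+ than in the CD133- population. All 5 probe sets with a signal above the floor were at least 8-fold lower in both processings. The floor was the median of an RMA column over all probe sets, which the higher of a probe set's 2 values had to reach, and was 5.16 in CD133+ and 5.14 in CD133-. A probe set was counted as lower when it was above the floor and at least 2-fold lower in RMA and in MAS5. By this rule 5 of the 9 members were lower and 0 were higher, where 0.569% of all probe sets were lower and 0.904% higher. Because the locus was chosen with this contrast known, nothing is read from that comparison. In bulk RNA, fewer cells with UGT1A transcripts and less UGT1A RNA per cell cannot be told apart.

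Probe set 208596_s_at, whose annotated source sequence is a UGT1A3 transcript and which names all 9 genes, gave an RMA value of 7.18 in CD133+ against 10.73 in CD133-. Its MAS5 intensities were 451.5 and 7780. The log2 differences were -3.55 in RMA and -4.11 in MAS5, or 11.7-fold and 17.2-fold lower in CD133+. The CD133+ value was still 2.02 above its column's median, so the signal was above the floor in both populations.

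Probe set 207126_x_at, designed on a transcript of UGT1A1, the bilirubin enzyme, had RMA values of 7.42 and 10.76 and MAS5 intensities of 589.3 and 6549 in CD133+ and CD133-. It was 10.1-fold lower in RMA and 11.1-fold lower in MAS5. Probe set 204532_x_at, designed on a transcript of UGT1A9, an enzyme of bulky phenols, had RMA values of 7.61 and 10.67 and MAS5 intensities of 623.8 and 6848. It was 8.38-fold and 11.0-fold lower. The annotation of these 2 probe sets names the same 6 genes, UGT1A1, UGT1A4, UGT1A6, UGT1A8, UGT1A9 and UGT1A10.

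Probe set 206094_x_at, designed on a transcript of UGT1A6, an enzyme of simple phenols, had RMA values of 7.19 and 10.43 and MAS5 intensities of 447.9 and 4293. It was 9.45-fold and 9.58-fold lower in CD133+. Probe set 215125_s_at, whose source sequence is not a RefSeq transcript of the table used, had RMA values of 7.00 and 10.35 and MAS5 intensities of 415.3 and 3694. It was 10.2-fold and 8.89-fold lower. Both name all 9 genes.

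**Figure D2:**
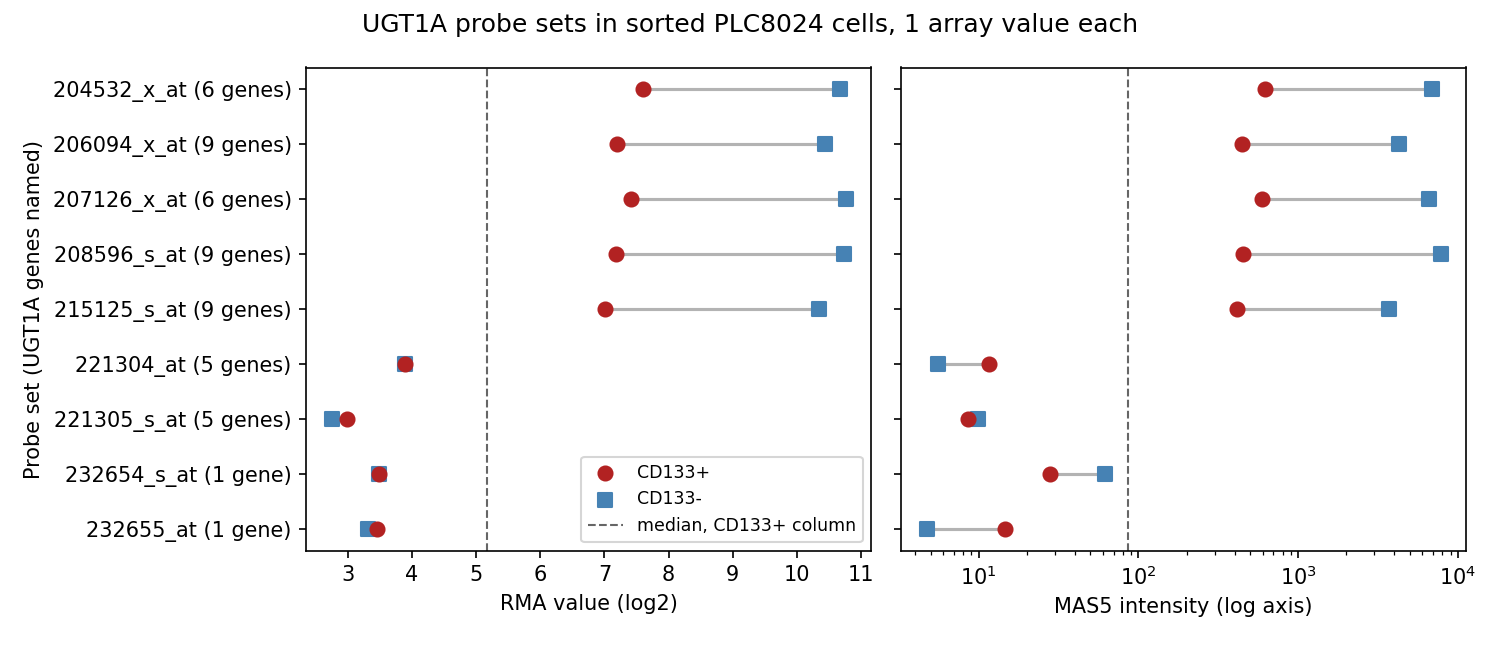
RMA values (left, log2) and MAS5 intensities (right, log axis) of the 9 UGT1A probe sets in CD133+ (circles) and CD133- (squares), 1 array value each, with the median of the CD133+ column over all probe sets as a dashed line. The upper 5 probe sets lie at 7.00 to 7.61 in CD133+ and 10.35 to 10.76 in CD133- in RMA, and the lower 4 lie below the median in both populations.

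Over the 5 probe sets above the floor, RMA values ran from 7.00 to 7.61 in CD133+ and from 10.35 to 10.76 in CD133-. In MAS5 they ran from 415.3 to 623.8 in CD133+ and from 3694 to 7780 in CD133-. The differences had a median of -3.34 in RMA with an SD of 0.18 over the probe sets, and a median of -3.46 in MAS5 with an SD of 0.37. These probe sets were read from the same 2 populations and share 6 of their annotated genes, so the SD is a spread between probe sets and not an error between samples. The gap between the RMA differences of 2 probe sets of a gene had an SD of 0.35 over 6170 genes with both above the floor. In MAS5 the SD of this gap was 0.79. A spread of gaps is another measure than a spread of differences, so these SDs are not set against 0.18 and 0.37. Over 391 genes with at least 5 probe sets above the floor, the median SD of the RMA differences within a gene was 0.22. Of these genes, 34.8% had a smaller SD than the UGT1A probe sets.

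Among the 311 probe sets counted as lower in CD133+, the UGT1A ones held ranks 1, 5, 6, 9 and 14 by RMA difference. Their ranks by MAS5 difference were 4, 11, 12, 19 and 22. At a bound of 8-fold in both processings, chosen after the values were seen, 12 probe sets of the array were lower in CD133+, or 0.0219% of all, and 5 of these 12 were UGT1A probe sets. The others were 2 of ALB, 1 each of MBNL3, PTGR1 and FOXF2, and 2 with no gene in the annotation. In contrast to several of these, all 5 UGT1A probe sets were above the floor in both populations, so their folds rest on a measured signal on both sides. The locus was picked on these differences, and its 5 probe sets share annotated genes. Nothing is therefore read from their ranks or from the 5 of 12.

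**Figure D3:**
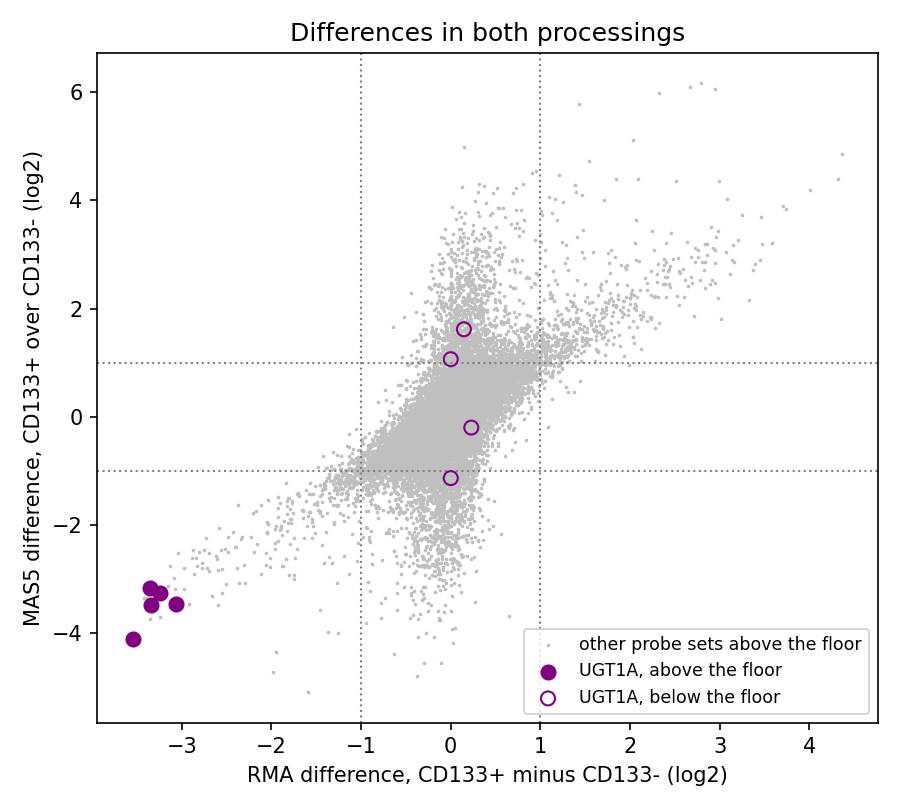
RMA difference (horizontal) against MAS5 difference (vertical), both CD133+ against CD133- on the log2 scale, for probe sets above the floor (grey) and for the UGT1A probe sets above it (filled) and below it (open); dotted lines mark 2-fold. The 5 filled points lie together at -3.55 to -3.07 in RMA and -4.11 to -3.15 in MAS5, while the 4 open points lie at 0.00 to 0.23 in RMA.

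The other 4 UGT1A probe sets were below the floor in both populations and gave no measurable difference. Probe sets 221304_at and 221305_s_at were both designed on a transcript of UGT1A8, a gut enzyme, and name 5 genes each, UGT1A1, UGT1A3, UGT1A5, UGT1A8 and UGT1A9. The first had an RMA value of 3.90 in both populations and MAS5 intensities of 11.6 in CD133+ and 5.56 in CD133-. The second had RMA values of 2.98 and 2.75 and intensities of 8.58 and 9.84. Their MAS5 differences thus had opposite signs, at 1.07 and -0.20.

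The annotation gives a single gene for 2 probe sets only, and both were made from the same source sequence. Probe set 232654_s_at, annotated to UGT1A6, had an RMA value of 3.49 in both populations and MAS5 intensities of 28.0 in CD133+ and 61.3 in CD133-. Probe set 232655_at, annotated to UGT1A1, had RMA values of 3.46 and 3.31 and intensities of 14.5 and 4.73. Their MAS5 differences were -1.13 and 1.62. Below the floor, 41.6% of all probe sets differed at least 2-fold in MAS5, against 13.4% above it, and 9.76% had identical RMA values in both populations, against 2.28% above it. The low signal of these single-gene probe sets does not bear on whether UGT1A1 or UGT1A6 was transcribed, since the array's probe sequences were not used here and their place in the gene was not checked. The same holds for the 5 probe sets above the floor: the annotation names 6 or 9 genes for each, whether they lie in the common exons was not checked, and which genes made up their signal was not resolved.

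Of the genes measured beside the locus, only those above the floor could meet the call rule, and none of these did. Of the 5 nearest measured genes on each side, in the gene order of the RefSeq table, 4 were above the floor, and none of the 10 was counted as lower or higher. Over all 19775 genes 0.723% were counted as lower and 1.49% as higher, so nothing is read from this count. USP40, a ubiquitin protease on the UGT1A8 side, gave RMA values of 7.25 in CD133+ against 7.77 in CD133-, a difference of -0.52 in RMA and -0.86 in MAS5. DGKD, a diacylglycerol kinase, and ATG16L1, an autophagy gene, followed on that side with RMA differences of -0.09 and -0.01. HJURP, a centromere histone chaperone on the UGT1A1 side, had RMA values of 8.00 and 8.07.

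SAG, INPP5D, MROH2A, TRPM8, SPP2 and SH3BP4 were below the floor in both populations. Their RMA differences ran from 0.27 for SAG to -0.31 for SPP2, apart from SH3BP4, the farthest of the 5 on its side, at -1.28. SH3BP4 had a MAS5 difference of -2.19 and missed the call rule only through the floor. The nearest genes above the floor on the 2 sides of the locus, USP40 and HJURP, thus differed by -0.52 and -0.07 where the UGT1A probe sets above the floor differed by -3.55 to -3.07.

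**Figure D4:**
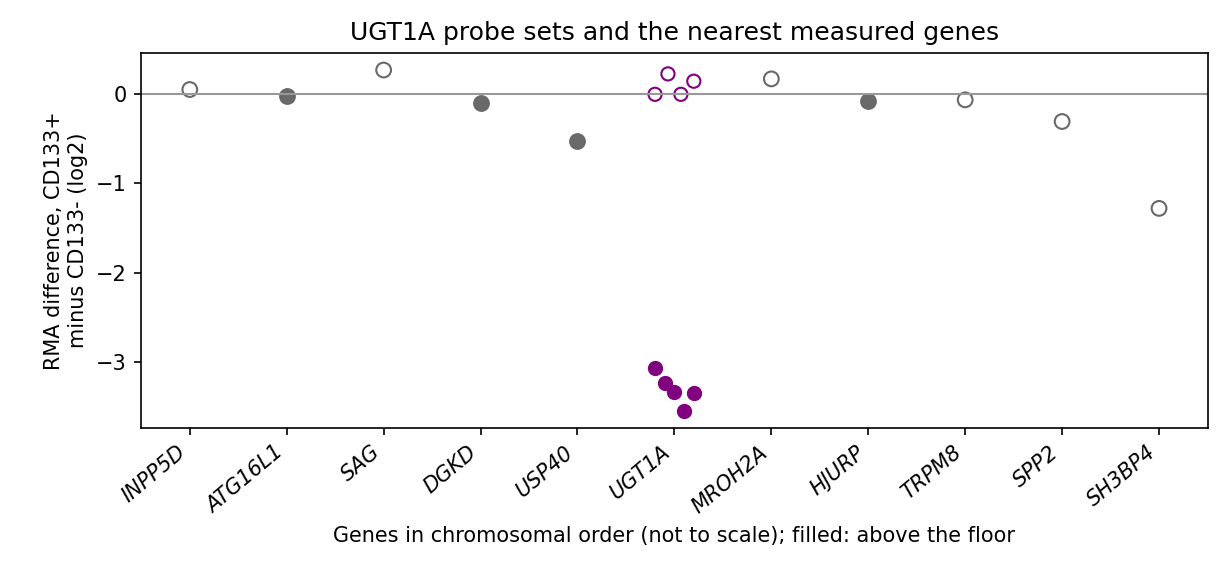
RMA difference, CD133+ minus CD133- on the log2 scale, of the 9 UGT1A probe sets and of the 5 nearest measured genes on each side in chromosomal order; filled points were above the floor. The 5 filled UGT1A points lie at -3.55 to -3.07, and the 4 filled neighbours at -0.52 to -0.01.

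The other UDP-glycosyltransferase families were mostly at low signal, and the member with the clearest signal was also lower in CD133+. For these and the lists below each gene was read from the probe set whose mean RMA value was highest, and 0.723% of all 19775 genes were counted as lower and 1.49% as higher. Of 13 listed genes 7 were measured by a probe set of their own, 2 were above the floor, 1 was counted as lower and 0 as higher. UGT2B4, a liver enzyme that conjugates bile acids, gave RMA values of 5.76 in CD133+ against 8.15 in CD133- and MAS5 intensities of 171.4 and 1188, which is 5.23-fold lower in RMA. UGT2B28, a steroid-conjugating member, had RMA values of 6.01 and 6.68, a difference of -0.68 in RMA and -0.91 in MAS5, and was not counted.

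UGT2A3, UGT2B15, UGT2B17, UGT3A1 and UGT8 were below the floor in both populations, with RMA differences from -0.09 for UGT2A3 to 0.46 for UGT3A1. UGT2B15 and UGT2B17 are androgen-conjugating enzymes, and UGT8 makes galactosylceramide in myelin. The members of the UGT2B family are close in sequence, which lets probe sets share signal. UGT2A1, UGT2A2, UGT2B7, UGT2B10, UGT2B11 and UGT3A2 had no probe set of their own in the table used.

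Enzymes that make or carry the sugar donor differed little, apart from its transporter. All 11 genes of UDP-glucuronic acid supply and glucuronide hydrolysis were above the floor, with 1 counted as lower and 0 as higher. The median RMA difference was 0.07, against 0.00 over all genes above the floor. SLC35D1, which carries UDP-glucuronic acid into the endoplasmic reticulum, gave RMA values of 9.44 in CD133+ against 10.49 in CD133-. It was 2.07-fold lower, and its other probe sets above the floor had differences of -1.14 and -0.59, so the count rests on a value close to the bound. UGP2, which makes UDP-glucose, had a difference of -0.36 and HK2, a hexokinase, one of 0.34. GUSB, the lysosomal enzyme that removes glucuronic acid, had one of 0.55, with -0.14 in its other probe set. UGDH, which oxidises UDP-glucose to UDP-glucuronic acid, was named with its values already known and had RMA values of 9.94 and 10.08.

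Genes of the route that bilirubin takes through the liver cell were not counted in either direction. Of 11 measured, 8 were above the floor, 5 of these were below 0, and the median RMA difference was -0.39. FABP1, a fatty acid binding protein of the hepatocyte cytosol, differed by -1.24 in RMA and -0.97 in MAS5. HMOX1, the heme oxygenase that starts bilirubin formation, had -0.97 and -1.05, which misses the rule in RMA. BLVRB, a biliverdin reductase, and ABCC2, which exports conjugated bilirubin into bile, had RMA differences of -0.44 and -0.43.

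Transcription factors known to act on UGT1A promoters differed by less than 1.5-fold in RMA. Of 12 measured, 11 were above the floor, none was counted, and the RMA differences lay between -0.38 and 0.28 with their median at -0.07. NR3C1, the glucocorticoid receptor, had a difference of -0.38, RXRA, the partner of several nuclear receptors, -0.37, NFE2L2, which encodes NRF2, -0.34, and FOXA2, a liver forkhead factor, 0.28. AHR, the aryl hydrocarbon receptor, named with its values already known, gave RMA values of 9.63 in CD133+ against 9.50 in CD133-. HNF4A, NR1I2, NR1H4 and NCOR1 were not analysed here, since no probe set in the table used names them alone.

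Among targets of the factors that induce UGT1A genes, those called were all in the NRF2 list, and differences between the lists were not tested. Of 7 aryl hydrocarbon receptor targets, 4 were above the floor and none was counted, with RMA differences of 0.08 for CYP1A1, 0.18 for TIPARP, 0.28 for CYP1A2 and -0.86 for NQO1. The last, a quinone reductase, is also an NRF2 target. Of 9 measured targets of the xenobiotic receptors PXR and CAR, 6 were above the floor and none was counted, around a median of -0.07. ALAS1, the first enzyme of heme synthesis, had a difference of -0.75, the cytochrome P450 genes CYP3A5 and CYP3A4 0.68 and 0.29, and the efflux pump ABCB1 -0.67. CYP3A5 had a CD133- value under the floor and a MAS5 difference of 0.06.

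Of 22 measured NRF2 targets, 21 were above the floor, 5 were counted as lower and 0 as higher. In RMA, 20 of the 21 were below 0 and their median was -0.65, where 49.9% of all genes above the floor were below 0. In MAS5, PGD, FTL and GSTM3 were above 0, at 0.23, 0.02 and 0.02, while ABCC3, above 0 in RMA, was at -1.32. The list was chosen with earlier results of these data known, so nothing is read from the 20 of 21. GPX2, a glutathione peroxidase, was 7.01-fold lower, AKR1C3 and AKR1C2, aldo-keto reductases, 6.49-fold and 2.88-fold, and the cystine transporter SLC7A11 2.39-fold. The fifth was SRXN1, which encodes sulfiredoxin, at an RMA difference of -1.21. The AKR1C genes are close in sequence and can share signal.

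Of 24 other conjugating enzymes measured, 19 were above the floor, with 4 counted as lower, 0 as higher, and a median of -0.13. NNMT, which methylates nicotinamide, was 5.06-fold lower, with -1.88 and -2.62 in its other probe sets. SULT1A1, a phenol sulfotransferase, was 3.14-fold lower, although its other probe sets had differences from -1.65 to 0.19 and the SULT1A genes are close in sequence. NAT2, an arylamine acetyltransferase, differed by -1.59 in RMA and -5.09 in MAS5. SULT1C2, another sulfotransferase, had -1.57 and -1.23 with a CD133+ value under the floor. The other 15 above the floor were not counted, and their RMA differences ran from -0.9995 for the acetyltransferase NAT1 to 0.66 for the glutathione transferase GSTP1, both named with their values already known.

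**Figure D5:**
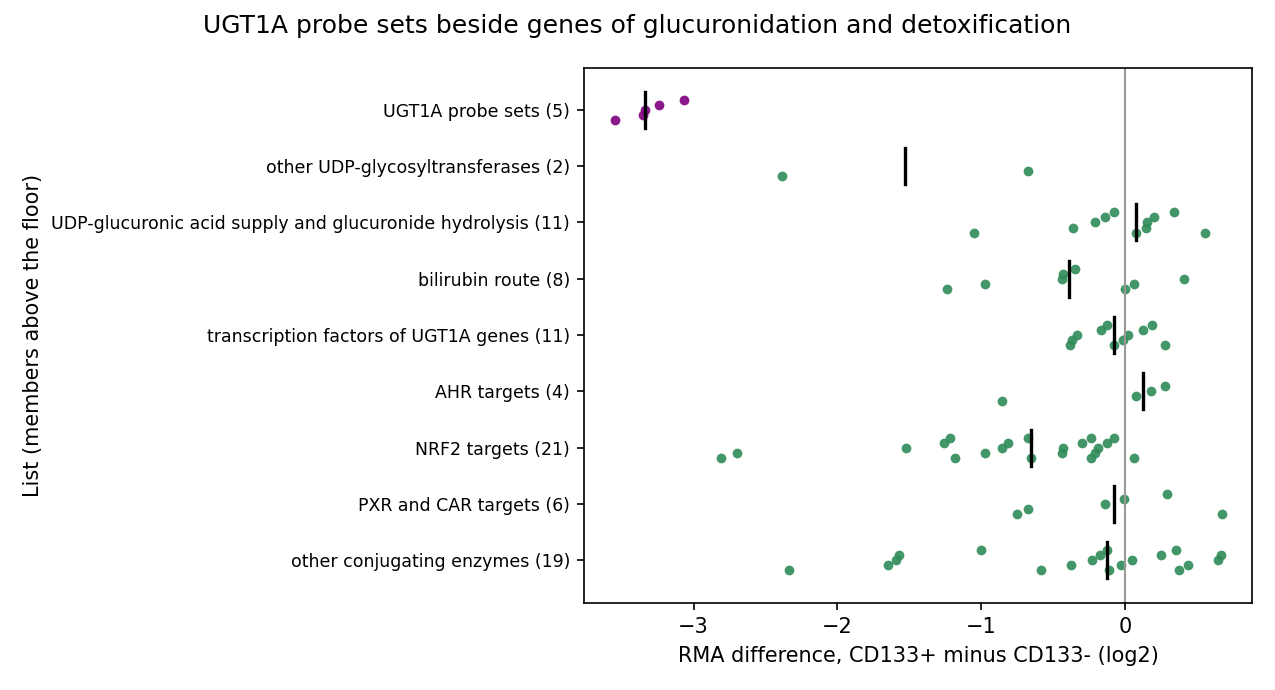
RMA differences, CD133+ minus CD133- on the log2 scale, of the 5 UGT1A probe sets above the floor and of the genes above the floor in 8 lists, 1 point each, with list medians as black lines and the number of points in brackets. The UGT1A points lie at -3.55 to -3.07, and the lowest gene of the lists is GPX2 at -2.81.

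The genes whose pair of differences came nearest to the median pair of the UGT1A probe sets above the floor were ALB, MBNL3, FOXF2, MAL2 and SPP1. Likeness was the Euclidean distance between the RMA and MAS5 differences, over 2 populations, and was 0.14 for ALB, which encodes albumin, and 0.27 for MBNL3, a splicing regulator. It was 0.38 for the forkhead factor FOXF2, 0.42 for MAL2, a gene of apical transport, and 0.70 for SPP1, which encodes osteopontin. In MBNL3, FOXF2 and MAL2 the CD133+ value was under the floor, while ALB had RMA values of 7.70 and 11.12. With a single value per population this says only that the differences were of like size.

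PROM1, which encodes CD133, gave RMA values of 10.35 in CD133+ against 6.04 in CD133-, in the direction of the labels. All 11 measured hepatocyte and hepatoma markers were above the floor in both populations, and 3 of them, ALB, AFP and APOA1, were counted as lower in CD133+. The summed MAS5 intensity of this list was 172496 in CD133+ and 195742 in CD133-. Of 8 leukocyte markers 4 were above the floor in each population, PTPRC, MS4A1, CD14 and NKG7 were not, and the sums were 10562 and 4295, mostly through LYZ, which was counted as higher in CD133+ with an RMA difference of 1.73. Of 7 endothelial markers PECAM1 alone was above it and was counted as lower in CD133+, with an RMA difference of -1.76, and the sums were 335.2 and 997.5. Fibroblast and stellate markers, 3 of 8 above it in each population, had sums of 966.5 and 575.6, and intestinal epithelial markers, 3 of 6, 905.8 and 942.3. The 2 measured erythroid markers had sums of 210.1 and 173.7. The part of these markers in the UGT1A difference was not tested.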

How the data were processed

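PLC8024 CD133+ and CD133- cells were measured on oligonucleotide arrays, 1 value per population in each of 2 processings. The authors deposited MAS5 intensity values on a linear scale and RMA values on the log2 scale, per the labels. The processing tools recorded for the samples were GCOS, MAS5 and RMA. No version, and no list of arrays normalized together, is stated in the sources used here. Arrays have no read depth, and their number limits the precision.

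Probe sets were named from the platform annotation, with symbols updated by gene ID through a RefSeq table of GRCh38.p14. Probe sets with several genes count as members of the locus and enter no gene list. Differences were RMA CD133+ minus CD133- and the log2 of the MAS5 ratio. The floor was the 50th percentile of each RMA column, and the call rule needed 2-fold in both processings. The code of the rule was run on simulated data, with changes planted in probe sets of high signal and noise smaller than the spread between probe sets given above. This checked the sign of the calls and not their error rate in these data. No test across samples was possible, so no p-value is given.

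Named were all UGT1A probe sets, PROM1, the other UDP-glycosyltransferases, 5 measured genes on each side of the locus, the 4 largest differences above the floor in each other list and the 5 genes of nearest pattern; other names are given as picked with their values known, or are markers or members of a count. Members and lists were chosen with earlier results of these data known. Alternatives were MAS5 alone, RMA alone, a pseudocount of 50, median centring, other floors (none, 75th percentile), folds of 1.5 and 3, probe set subsets and the median over a gene's probe sets. Promoter windows were aligned with Biopython 1.88 (match 1, mismatch -1, gap opening -3, gap extension -1); Python 3.11.15, numpy 2.4.6 and pandas 2.3.3 were used.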

Additional observations from a re-analysis of the deposited data

How the results depend on the processing

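The count of 5 lower UGT1A probe sets was the same with MAS5 alone, RMA alone, a pseudocount of 50, median centring, no floor, a floor at the 75th percentile, bounds of 1.5-fold and 3-fold, and over the probe sets that name several UGT1A genes. It was 2 without _x_at probe sets, since 3 of the 5 are of that kind. It was 0 over the 2 probe sets that name 1 UGT1A gene, which are below the floor with RMA differences of 0.00 and 0.15. The median RMA difference over all 9 UGT1A probe sets was -3.07. It was 0.00 without _x_at probe sets, where 4 of the 6 left are below the floor, and 0.074 over the 2 single-gene probe sets. Of 24 alternatives for the gene lists, 21 moved the median by less than 0.35. The list of other UDP-glycosyltransferases, with 2 genes above the floor, had a median of -1.53, which was 0.14 with no floor. It was -0.91 with MAS5 alone. The bilirubin route had a median of -0.39, which was 0.00 with no floor. No paired analysis was possible because each population has a single array value in each processing and the labels give no replicate numbers. Leaving out a replicate was not possible either, for the same reason. Probe sets annotated to several genes and 1 value per population limit what these data show on any single UGT1A gene.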
